A study of Mus musculus with 80 samples.

Results

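The transcripts described here are those of 10 genes that tissue macrophages are known for, C1qa, C1qb, C1qc, Fcna, Vcam1, Cd5l, Hmox1, Slc40a1, Spic and Adgre1, measured in hematopoietic stem cells (HSCs) that had been sorted from transplanted mice. The genes were chosen by their measured levels at day 4 after transplantation, so their excess at day 4 over freshly sorted HSCs is a description and carries no test. All 10 were present among the 21825 gene symbols of the bulk RNA-seq tables and among the 21901 of the single-cell RNA-seq (scRNA-seq) matrices. Read below are whether their day 4 levels moved together from library to library, and how they differed between old and young HSCs. Differences between CD150 groups and the spread over single cells at day 14 are read too. The genes were chosen with earlier results of these data known, so none of these readings is independent of the choice.

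The study profiled HSCs of male C57BL/6 mice, sorted as LSK cells (lineage-negative, Sca-1+, c-Kit+) that were CD48- CD34- CD150+. The 8 bulk groups had 3 libraries each: HSCs of young mice (2 to 3 months), HSCs of old mice (22 to 24 months), the old HSC pool divided by rising CD150 into the fractions G1, G2, G3 and G4 of the same 3 mice, and old CD150low or CD150high HSCs recovered 4 days after they were injected into irradiated mice. The time is that of the labels, while the deposited data of these libraries are named 4p5D, and the ages are those of the methods, from which other parts of the study's text differ slightly. The transplanted cells were the 25% of old HSCs with the lowest or highest CD150. They carried CD45.2, and they were given, with Sca-1-depleted CD45.1 helper cells, to CD45.1 recipients that had received 9.5 Gy. The 4 scRNA-seq groups, with 1 library each, were fresh young HSCs, fresh old HSCs, and donor-derived LSK cells taken 14 days after transplantation of CD150low or CD150high old HSCs. No gene was targeted or expressed from a transgene in these groups. The lineage antibodies listed for depletion include one to CD11b and none to F4/80, the protein of Adgre1. The labels do not say whether the numbered libraries of the young, old and transplanted groups came from separate mice, so their p-values measure only the spread between these libraries.

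Macrophages of the marrow and spleen engulf aged red cells and dying cells. C1q, made of 3 chains, binds apoptotic cells and starts the classical complement cascade, while Hmox1 (heme oxygenase) breaks down heme and Slc40a1 (ferroportin) exports the iron that is set free. Spic is the transcription factor that red pulp macrophages and erythroblastic island macrophages depend on, and Vcam1 lets such macrophages hold on to neighbouring cells. Fcna (ficolin A) is a lectin of the complement system, Cd5l is a secreted scavenger protein, and Adgre1 encodes the macrophage surface marker F4/80.

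On mouse build mm10 the 3 C1q genes are neighbours on the minus strand of chromosome 4, within 18.7 kb. C1qb lies at chr4:136880129-136886187, C1qc at chr4:136889804-136893065 and C1qa at chr4:136895917-136898803. The other 7 genes are apart from them and from each other: Fcna at chr2:25624666-25628030, Vcam1 at chr3:116109949-116129688, Cd5l at chr3:87357881-87371073, Hmox1 at chr8:75093621-75100589, Slc40a1 at chr1:45908068-45926523, Spic at chr10:88674772-88685015 and Adgre1 at chr17:57358691-57483527. All are annotated as protein-coding, and the positions are those of whole genes.

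Start-site sequences were at hand for C1qb, C1qc, Fcna, Cd5l and Spic. The 250 bases before the RefSeq transcription start (build GRCm38.p6, 5′ to 3′ along the gene) are shown for 2 members that moved together at day 4 and for Spic, which did not move with them. Capitals mark GAGGAA on either strand, the core that PU.1 and its relative Spi-C, the product of Spic, are known to read. The RefSeq start can differ from that of the gene spans given above: the window of Spic lies inside its span and that of C1qc overlaps its span.
C1qb, chr4:136886201-136886450, minus strand: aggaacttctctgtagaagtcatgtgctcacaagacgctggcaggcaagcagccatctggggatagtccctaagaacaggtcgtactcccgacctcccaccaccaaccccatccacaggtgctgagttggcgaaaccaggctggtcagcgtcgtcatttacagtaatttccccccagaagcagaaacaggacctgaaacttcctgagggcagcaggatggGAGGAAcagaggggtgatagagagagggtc
C1qc, chr4:136892915-136893164, minus strand: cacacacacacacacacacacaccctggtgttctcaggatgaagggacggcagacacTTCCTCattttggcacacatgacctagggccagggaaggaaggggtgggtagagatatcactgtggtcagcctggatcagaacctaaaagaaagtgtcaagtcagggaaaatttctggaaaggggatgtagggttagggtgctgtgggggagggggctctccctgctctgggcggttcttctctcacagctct
Spic, chr10:88683024-88683273, minus strand: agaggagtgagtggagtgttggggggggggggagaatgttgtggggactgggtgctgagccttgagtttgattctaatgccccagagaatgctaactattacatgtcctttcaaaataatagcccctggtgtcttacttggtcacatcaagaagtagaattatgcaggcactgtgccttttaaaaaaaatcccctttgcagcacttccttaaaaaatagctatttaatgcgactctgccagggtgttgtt
The first base of the match stood 30 bases before the start in C1qb and 193 bases before it in C1qc. Cd5l also held 1 match and Fcna held 3, while the Spic window held none. Of 32851 RefSeq windows of this length, 23.3% held the motif. The second motif searched, TGACNNNGC on either strand, the antioxidant response core, was in 1 of the 5 windows, that of C1qb, and in 10.2% of all windows. A match is a description of the letters and no evidence of binding.

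C1qb had the highest mean of the 10 in both arms at day 4. Next came Hmox1, C1qc and C1qa in CD150low and C1qc, Hmox1 and C1qa in CD150high libraries. Bulk values are FPKM as deposited, fragments scaled to transcript length and library size. C1qb measured 102.7, 40.9 and 11.8 FPKM in the day 4 CD150low libraries and 74.5, 33.5 and 107.2 FPKM in the CD150high libraries, each in the order of replicates 1 to 3. In the 18 fresh libraries C1qb ranged from 0 to 6.08 FPKM, with a median of 0.0326. C1qc measured 74.1, 28.9 and 8.98 FPKM in the CD150low and 66.3, 20.7 and 58.1 FPKM in the CD150high libraries, and at most 4.04 FPKM in any fresh library. C1qa measured 53.2, 21.7 and 8.49 FPKM in the CD150low and 46.0, 16.8 and 45.4 FPKM in the CD150high libraries. All 6 day 4 values of each C1q gene lay above all 18 fresh values. C1qa was listed at 0 in all 12 libraries of G1 to G4. Fcna, listed at 0 in the same 12 libraries, measured 33.8, 12.2 and 3.63 FPKM in the CD150low and 34.6, 11.9 and 20.9 FPKM in the CD150high libraries.

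The heme and iron members Hmox1 and Slc40a1, the adhesion molecule Vcam1 and Cd5l did not all share the same extreme libraries. Hmox1 was highest in CD150high replicate 3 and lowest in CD150high replicate 2, and the other 3 were highest in CD150low replicate 1 and lowest in CD150low replicate 3. Hmox1 measured 58.2, 44.8 and 14 FPKM in the CD150low and 47.0, 13.1 and 59.4 FPKM in the CD150high libraries, against 0 to 4.68 FPKM in the fresh libraries. Slc40a1 measured 23.0, 8.65 and 1.51 FPKM in the CD150low and 7.93, 7.86 and 13.5 FPKM in the CD150high libraries. Its lowest day 4 value lay within the fresh range, which reached 2.72 FPKM. Vcam1 measured 23.1, 13.1 and 1.48 FPKM in the CD150low and 20.8, 4.35 and 9.78 FPKM in the CD150high libraries, and at most 1.64 FPKM in fresh libraries. Cd5l measured 20.0, 8.06 and 1.02 FPKM in the CD150low and 13.1, 7.05 and 12.3 FPKM in the CD150high libraries, against at most 1.38 FPKM when fresh. For Vcam1, Cd5l and Slc40a1, 5 of the 6 day 4 values lay above every fresh value, and the exception was CD150low replicate 3 each time.

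Spic and Adgre1 were the weakest. Spic measured 10.2, 8.45 and 5.86 FPKM in the CD150low and 3.72, 5.83 and 9.67 FPKM in the CD150high libraries, while fresh libraries ranged from 1.22 to 9.35 FPKM. The day 4 and fresh values of Spic therefore overlapped, and 2 of the 6 day 4 values exceeded all fresh ones. Adgre1 measured 1.92, 2.08 and 0.0188 FPKM in the CD150low and 1.54, 0.461 and 2.52 FPKM in the CD150high libraries, with 4 of 6 above the highest fresh value of 0.581 FPKM.

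**Figure D1:**
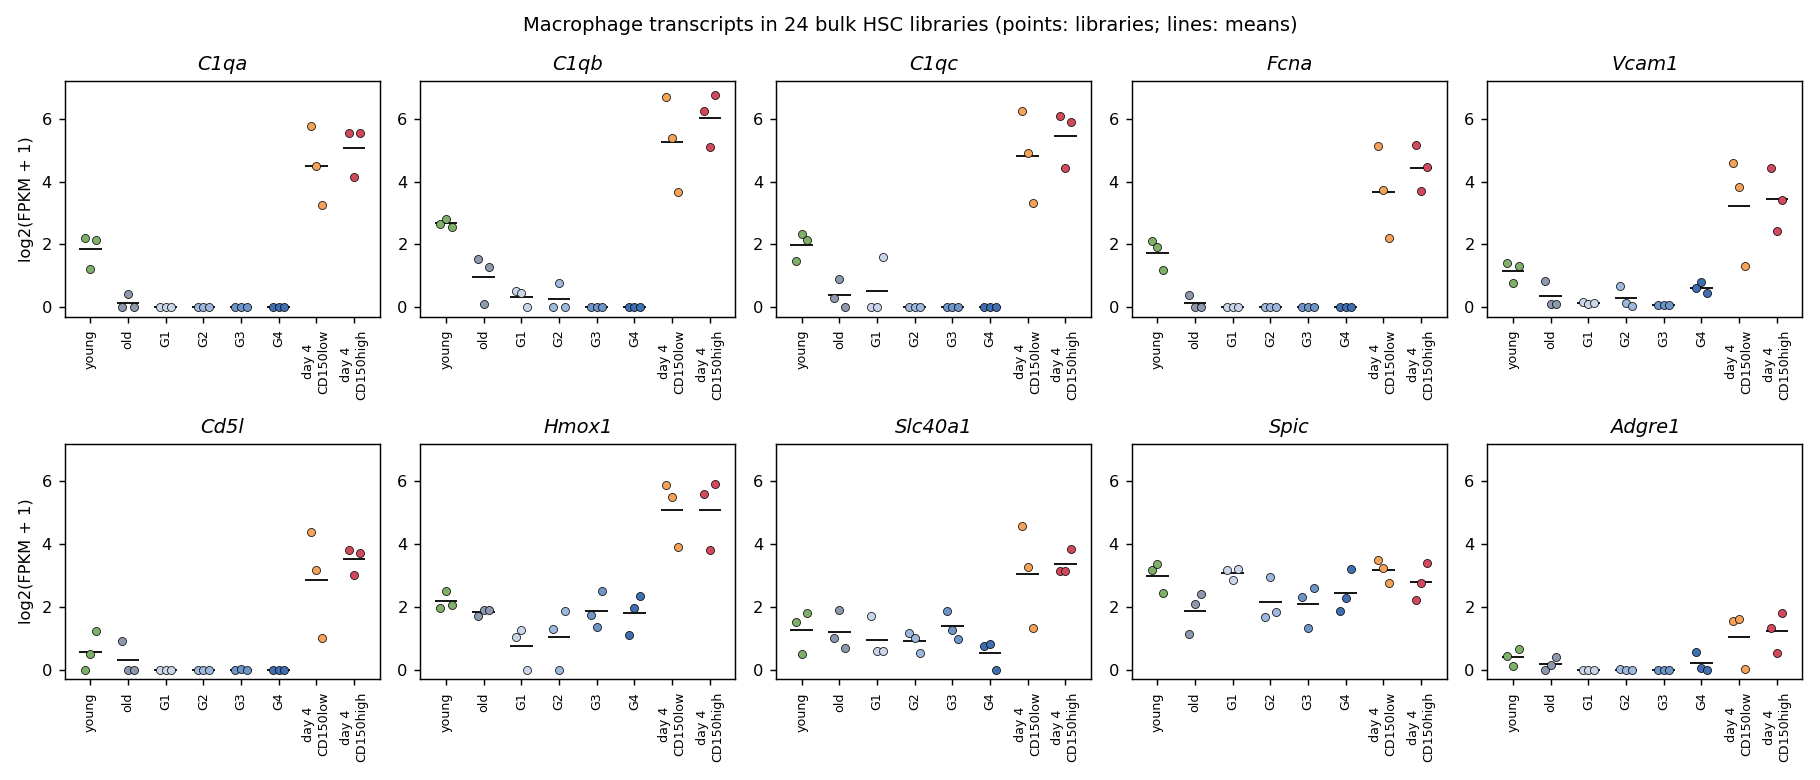
Level of each of the 10 genes in the 24 bulk libraries, on a log2(FPKM + 1) axis, by group (points are libraries, lines are group means of the log2 values, 3 libraries per group). The day 4 points of 9 genes sit mostly above the fresh ones, while those of Spic lie among them; young libraries stand above those of G1 to G4 for C1qa, C1qb and Fcna.

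The fresh fraction of like CD150 was G1 for CD150low and G4 for CD150high. The difference in mean log2(FPKM + 1) between day 4 and that fraction was 4.33 and 3.28 for Hmox1, 3.10 and 2.81 for Vcam1, and 2.10 and 2.85 for Slc40a1. Against G1 it was 4.93 for C1qb and 4.29 for C1qc. No fold is given for C1qa and Fcna, listed at 0 in all G1 and G4 libraries, nor for C1qb and C1qc against G4 or Cd5l against G1, which were at 0 there too. Spic had the smallest difference, 0.08 and 0.34, and Adgre1 had 1.06 and 1.02. The median over the 10 genes, those at 0 included, was 3.39 for CD150low and 3.40 for CD150high. Over all genes averaging 1 FPKM or more in either group it was -0.17 and -0.21. These medians depend on the pseudocount, since most members were at or near 0 when fresh, and with 0.1 in place of 1 the member medians were 5.86 and 5.61. For 8 of the 10 genes in each arm, all 3 day 4 values were above all 3 fresh values and the difference exceeded 1 on this scale, a 2-fold change. Of all genes, 6.78% met this mark for CD150low and 7.94% for CD150high, and 13.6% and 15.7% met it in the other direction. The choice of the genes used this contrast, so nothing is read from the counts. In such bulk samples, a change in the number of cells of a type and a change in RNA per cell cannot be told apart.

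None of the 10 genes was called between the 2 transplanted arms. The fit (limma on log2(FPKM + 1), Benjamini-Hochberg adjustment over all genes, a call at adjusted p under 0.05 and over 2-fold) tested 11077 genes and called none, so the background was 0% in both directions; 826 genes had an unadjusted p under 0.05. The CD150high minus CD150low difference ran from -0.36 for Spic to 0.78 for C1qb on the log2 scale. For C1qb its 95% interval was -0.60 to 2.16, with an adjusted p of 0.794, so a difference of 4-fold in favour of CD150high was within the interval. For Hmox1 the difference was 0.00, with an interval of -1.24 to 1.25. Leaving out CD150low replicate 3, the library with the lowest level of 8 members, moved the C1qb difference to -0.01 and that of Slc40a1 from 0.32 to -0.54. The arms overlapped for all 10 genes.

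The spread among the 6 day 4 libraries was wide, and the same libraries tended to be high or low, although C1qa, C1qc and Cd5l were the 3 members with one identical order. CD150low replicate 1 was the highest library for 6 of the 10 genes and among the top 3 for all 10. CD150high replicate 3 was the highest for 3 genes, C1qb, Hmox1 and Adgre1. CD150low replicate 3 was the lowest for 8 of the 10 genes, the exceptions being Hmox1 (rank 5 of 6) and Spic (rank 4 of 6). CD150high replicate 2 had rank 5 for 9 genes and was the lowest for Hmox1. The highest day 4 value was 6.27 times the lowest for C1qa, 9.10 times for C1qb, 8.26 times for C1qc, 9.53 times for Fcna, 15.6 times for Vcam1, 19.6 times for Cd5l, 4.52 times for Hmox1 and 15.2 times for Slc40a1. For Spic it was 2.76 times. The FPKM of the 10 genes summed to 400.3, 188.9 and 56.8 in the CD150low and 315.5, 121.5 and 338.8 in the CD150high libraries, or 0.00816% to 0.0576% of a library's summed FPKM. In G1 to G4 the sum ran from 4.64 to 12.8 FPKM, in old HSCs from 8.76 to 10.3 and in young HSCs from 26.6 to 29.9.

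**Figure D2:**
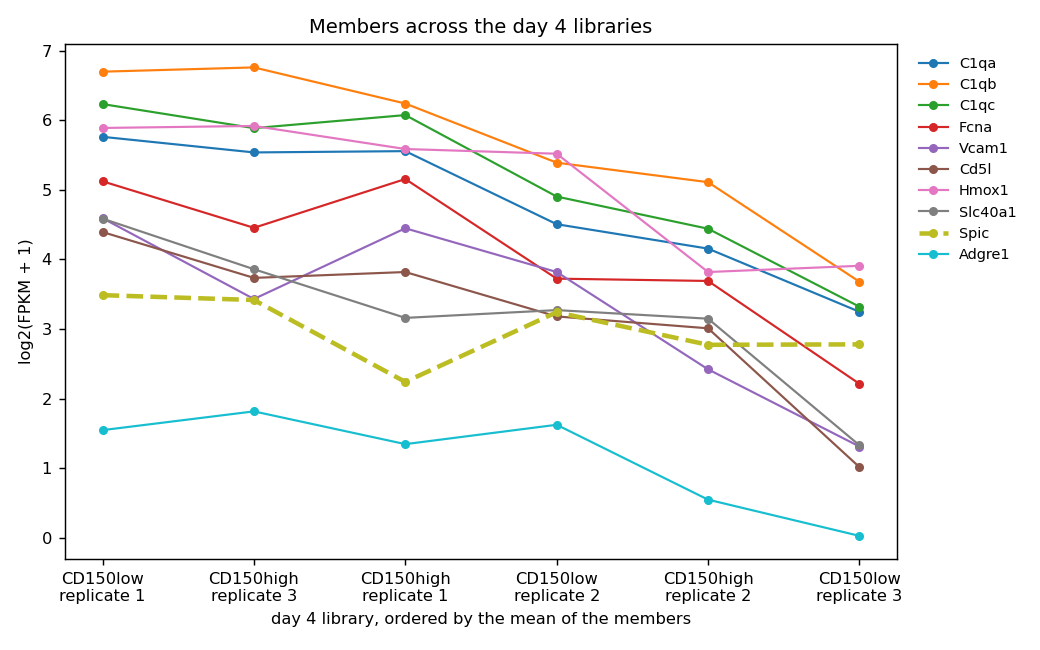
The 10 genes across the 6 day 4 libraries, each line a gene on a log2(FPKM + 1) axis, with libraries ordered from the highest to the lowest member mean. Lines of 9 genes descend toward CD150high replicate 2 and CD150low replicate 3, and that of Spic (dashed) stays between 3.72 and 10.2 FPKM.

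Pair by pair, 36 of the 45 pairs of members did not include Spic. Their Pearson r of log2(FPKM + 1) over the 6 libraries ran from 0.75 to 1.00 (median 0.89), and their Spearman rho from 0.49 to 1.00 (median 0.83). By an exact two-sided permutation test over the 720 orders of the libraries, with adjustment over the 45 pairs, 30 of these 36 pairs had an adjusted p under 0.05 for Pearson r and 3 for rho. The 3 were C1qa with C1qc, C1qa with Cd5l and C1qc with Cd5l, each with rho of 1.00 and an adjusted p of 0.0417 in the exact test. C1qa and C1qc had an r of 1.00 (exact p = 0.0014, adjusted 0.0208), and C1qa and Fcna an r of 0.97 (exact p = 0.0028, adjusted 0.0250). The smallest exact p that 6 libraries allow is 0.00139 for r and 0.00278 for rho. Hmox1 with Slc40a1, the enzyme and the exporter of the same route, had the lowest r of the 36, 0.75 (exact p = 0.0542, adjusted 0.0717). Spic had r between 0.10, with Fcna, and 0.55, with Slc40a1, and no pair of it had an adjusted p under 0.05 by either measure. The genes were chosen by their levels in these same 6 libraries, and Spic was set apart after its values were seen. The p-values of the pairs are therefore descriptive and no independent support.

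The covariation rested in part on the extreme libraries. Without the 2 libraries farthest from the median of the first gene of a pair, C1qa kept an r of 0.99 with C1qc, 0.94 with C1qb, 0.91 with Fcna and 0.90 with Cd5l. It had 0.42 with Vcam1 and -0.17 with Adgre1, so these relations rested on the libraries left out. Over the 36 pairs without Spic the r of the remaining 4 libraries ran from -0.84 to 1.00, with a median of 0.69. Each arm has 3 libraries, too few for a value within an arm. With CD150low replicate 3 left out, the median r of all 45 pairs was 0.72, against 0.87 with all 6 libraries. For comparison, 5.72% of the 61344426 pairs among 11077 genes expressed at day 4 had an r of at least 0.75 and their median r was 0.01. The 6 libraries had similar summed FPKM, from 688567.3 to 723258.7.

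**Figure D3:**
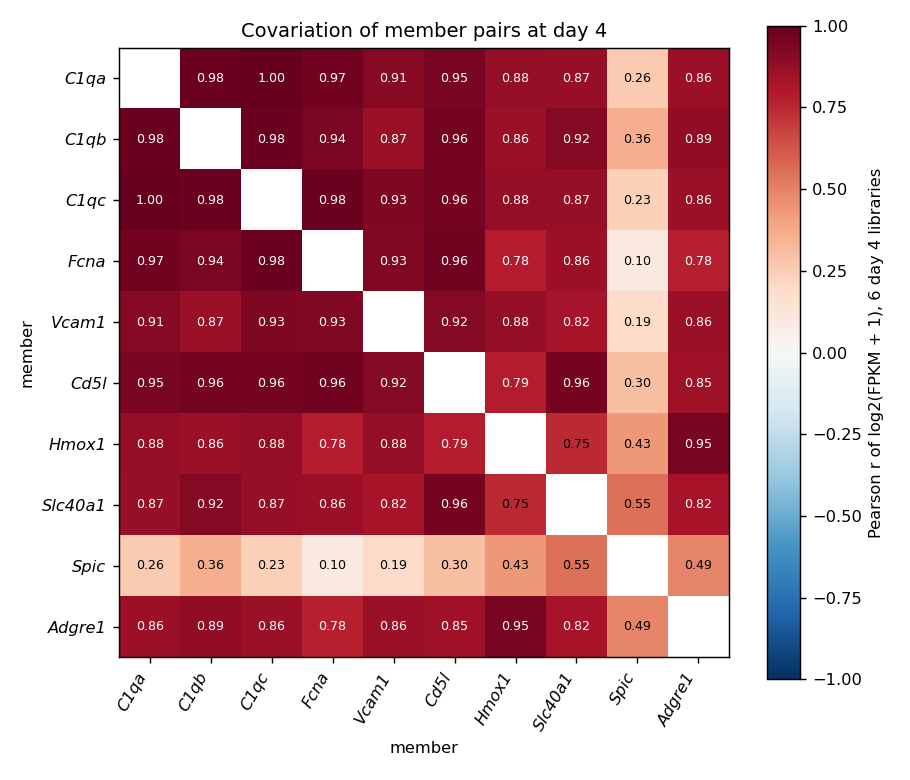
Pearson r of log2(FPKM + 1) for each pair of the 10 genes over the 6 day 4 libraries, with the colour scale from -1 to 1. Every pair without Spic is at 0.75 or higher, and the row of Spic lies between 0.10 and 0.55.

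Within the C1q genes the proportions were close to constant while the amount changed. C1qa made up 23.1%, 23.7% and 29.0% of the summed C1q FPKM in the CD150low libraries and 24.6%, 23.7% and 21.5% in the CD150high libraries, over sums from 29.2 to 230.1 FPKM. C1qb made up 39.9% to 50.9% and C1qc 27.6% to 35.5%. Fcna per unit of C1q ran from 0.0992 to 0.185. By contrast, Spic per unit of C1q ran from 0.0199 in CD150high replicate 1 to 0.200 in CD150low replicate 3. Hmox1 per unit of C1q was between 0.185 and 0.490.

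Among 12056 genes outside the 10, those whose day 4 levels were most like the mean of the members were Fcer1g, Ccl6, Cd209f, Dcaf12 and Wfdc17, with r of 0.99, 0.98, 0.98, 0.98 and 0.96 over the 6 libraries. Fcer1g, the common Fc receptor gamma chain, averaged 141.3 FPKM in fresh young HSCs, above its 79.2 and 86.7 FPKM at day 4. Ccl6, a chemokine of myeloid cells, averaged 0.570 FPKM in G1 and 1.10 in G4, and 20.2 and 21.9 FPKM at day 4. Cd209f, a lectin receptor, averaged at most 0.990 FPKM in the fresh groups and 13.5 and 14 FPKM at day 4. Dcaf12 stayed between 13.7 and 17.6 FPKM in the 6 libraries, so a high r also occurred in a gene that hardly varied. The remaining 5 were Cacfd1, Ttbk2, Myof, Cavin1 and Zdhhc18, with r of 0.96 each. Of the 12056 genes, 52, or 0.431%, had an r of at least 0.9.

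Over all 24 bulk libraries, which also reflects the step from fresh to day 4, the 10 most like genes were Ly86, Ccr3, Fcgr3, Ear2, Cd209f, Fabp4, Cct2, Cd300c2, Hpgd and Dut, with r from 0.97 to 0.94. Ear2, a ribonuclease of eosinophils and macrophages, was listed at 0 or averaged at most 0.0179 FPKM in the fresh groups, and averaged 22.5 FPKM in CD150low and 12.7 FPKM in CD150high cells at day 4. Fabp4, a fatty acid binding protein, averaged at most 2.21 FPKM in the fresh groups and 95.8 and 45.6 FPKM at day 4. Fcgr3, an Fc receptor, averaged at most 1.38 FPKM when fresh and 8.95 and 10.8 FPKM at day 4. Dut, an enzyme of nucleotide metabolism that all dividing cells use, averaged 86.5 to 189.3 FPKM in the fresh groups and 501.6 and 487.9 FPKM at day 4, so likeness over the 24 libraries took in genes with no macrophage role.

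A list of 27 other macrophage genes was mixed at day 4. In CD150low cells 24 of them reached 1 FPKM in either group, 8 were apart and over 2-fold higher than in G1 and 3 were apart and lower, with a median log2 difference of 0.96. In CD150high cells 10 of 23 were higher than in G4 and 3 lower (median 0.93). Of all genes, 6.78% in CD150low and 7.94% in CD150high cells were apart and higher, and 13.6% and 15.7% were apart and lower. Within this list, r with the member mean at day 4 ran from -0.31 for Pecam1 to 0.987 for Fcer1g. Axl, Tyrobp, Aif1, Fcgr3 and Mrc1 also had r above 0.9, and Fcgr1 and Nr1h3 were also negative. Tyrobp, a signalling adaptor of myeloid cells, averaged 76.4 FPKM in CD150low cells at day 4 and 2.78 in G1. Aif1, the myeloid protein also called Iba1, averaged 18.5 FPKM against 1.03 in G1. Apoe, Cd14 and Maf were the 3 lower genes in both arms, and Apoe averaged 314.3 FPKM at day 4 against 901.5 in G1. Mrc1, the mannose receptor, averaged 4.85 and 4.63 FPKM in CD150low and CD150high cells at day 4, against 0.198 in G1 and 0.0366 in G4. Trem2, a lipid receptor, averaged 3.01 and 5.06 FPKM and was listed at 0 in G1 and G4. Some defining markers were low at day 4, with means above those of G1 and G4: Siglec1 averaged 0.160 and 0.725 FPKM (0.00208 in G1, listed at 0 in G4), Timd4 0.372 and 0.357 (0.000361 and 0.000443) and Csf1r 1.04 and 0.758 (0.0180 in G1). The summed level of the list was carried by Apoe, Lyz2 and Ctsb, which averaged 901.5, 492.8 and 156.5 FPKM in G1, so it says little of the other genes. It ran from 1574.4 to 2212.9 FPKM in the G1 to G4 libraries and from 897.8 to 1869.4 FPKM at day 4. It was highest, among day 4 libraries, in CD150high replicate 1 and CD150low replicate 1.

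Other complement and heme genes did not follow the members as lists. Of 16 other complement genes, 2 of 12 in CD150low cells (Cfp and Cfb) and 1 of 7 in CD150high cells (Cfp) were apart and higher, and C1ra was lower in both arms. Cfp, properdin, averaged 18.4 and 19.5 FPKM at day 4 against 1.02 in G1 and 1.21 in G4. Of 17 other heme and iron genes, Slc11a1, the metal transporter of phagosomes, was the 1 that was higher in each arm, at 3.03 and 1.70 FPKM against under 0.01 in G1 and G4. Bach1 and Nfe2l2, heme- and stress-responsive transcription factors that act on Hmox1, were lower: Nfe2l2 averaged 41.3 and 44.6 FPKM at day 4 against 90.0 in G1 and 97.9 in G4. Median pair r at day 4 was 0.47 among 23 other macrophage genes, 0.31 among 12 complement genes and -0.01 among 14 heme and iron genes.

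Markers of other cells were read in the same libraries. The neutrophil genes summed to 0.0999 to 2.66 FPKM at day 4 and to 7.75 to 100.1 FPKM in G1 to G4, and S100a8 was listed at 0 in all 6 day 4 libraries. Monocyte genes summed to 27.8 to 67.0 FPKM at day 4 and 5.15 to 18.1 FPKM in G1 to G4, with Clec4a3 and Ms4a6c higher in both arms. Dendritic cell genes summed to less at day 4, 121.7 to 261.4 FPKM against 815.5 to 1492.5 FPKM, and so did megakaryocyte genes, 152.1 to 261.3 against 356.9 to 613.7 FPKM. Erythroid genes overlapped, at 1086.5 to 1930.0 FPKM at day 4 and 1382.3 to 1908.3 FPKM in G1 to G4. Within that list Hbb-bs averaged 249.7 and 245.8 FPKM at day 4 against 40.2 in G1 and 12.8 in G4. B cell genes summed to 22.1 to 34.8 FPKM at day 4, T cell genes to 2.82 to 9.44, and endothelial and stromal genes to 21.3 to 79.7. The median pair r of the endothelial and stromal list was 0.69 over 10 pairs; its sums were 79.7, 53.8 and 23.8 FPKM in the CD150low libraries, in the order of the members, and 21.3, 24.1 and 30.5 FPKM in the CD150high libraries, not in their order. The HSC and gate genes summed to 857.1 to 1156.1 FPKM at day 4 and 1019.5 to 1738.2 FPKM in G1 to G4, and Kit averaged 32.5 and 25.5 FPKM at day 4. That list also holds Cd34, Cd48 and Ptprc, so its sum is not a measure of HSCs alone. Procr, Hlf and Kit were apart and lower than in the fresh fraction in both arms. So were Mecom and Ptprc in CD150low cells, and Fgd5 and Slamf1 in CD150high cells. Cd48, whose protein the gate of the fresh HSCs excludes, was higher. It averaged 63.3 and 18.2 FPKM at day 4 against 0.00667 in G1 and 0.0148 in G4. The markers of the day 4 sort are not spelled out in the sources used here. Whether macrophages or their RNA came with the sorted cells was not tested.

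The 3 C1q genes and Fcna were lower in fresh old than in fresh young HSCs, in a contrast other than the day 4 levels named for the choice. C1qa measured 3.64, 1.33 and 3.43 FPKM in young HSCs and 0, 0.345 and 0 in old HSCs. C1qb measured 5.25, 6.08 and 4.86 FPKM in young and 1.93, 0.0652 and 1.42 in old HSCs. C1qc measured 1.80, 4.04 and 3.41 FPKM in young and 0.223, 0.868 and 0 in old HSCs, and Fcna 3.31, 2.75 and 1.28 FPKM in young and 0.316, 0 and 0 in old HSCs. All young values of these 4 genes lay above all old values, and the same held for Hmox1 and Spic. The share of all genes with ranges apart in this contrast was not computed, so nothing is read from the separation. C1qa, C1qc and Fcna passed the filter of 1 FPKM only through the young group, with old means of 0.115, 0.363 and 0.105 FPKM. Their adjusted p-values below are therefore no independent support, and no call of the 4 held with the filter removed. In old relative to young HSCs C1qa fell by 1.72 on the log2(FPKM + 1) scale (SE 0.325, limma adjusted p = 0.00964), C1qb fell by 1.70 (SE 0.358, adjusted p = 0.0164), C1qc fell by 1.59 (SE 0.330, adjusted p = 0.0152) and Fcna fell by 1.60 (SE 0.311, adjusted p = 0.0114).

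These 4 of the 8 members that averaged 1 FPKM or more in young or old HSCs were the ones called, all lower in old HSCs. Of all 11279 genes tested, 1.73% were called lower and 1.92% higher. A member at low level passed the filter only through the young group, so the share called is not support. Spic differed by -1.11 (limma adjusted p = 0.0978), with 8.16, 9.35 and 4.41 FPKM in young and 1.22, 3.32 and 4.30 in old HSCs. Vcam1 differed by -0.81 (adjusted p = 0.177), Hmox1 by -0.34 (adjusted p = 0.536) and Slc40a1 by -0.08 (adjusted p = 0.951). Cd5l, at 0 to 1.38 FPKM in young and 0 to 0.911 in old libraries, and Adgre1, at most 0.581 FPKM, were not tested. Removing the low-value filter leaves the differences as they are, but it estimates the spread anew and adjusts over more genes. None of the 4 was then called by limma (adjusted p from 0.111 to 0.201). Without young replicate 1 the call of C1qc was the one left, while C1qa differed by -1.54 (adjusted p = 0.0502), C1qb by -1.71 (0.0594) and Fcna by -1.41 (0.0543) in limma. Without young replicate 2 the calls of C1qa and Fcna were left, while C1qb differed by -1.62 (adjusted p = 0.0650) and C1qc by -1.42 (0.0659). With the replicate number as a block all 4 were called, with adjusted p from 0.0132 to 0.0235.

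Other genes in the old and young libraries moved both ways. Of 15 other macrophage genes tested, Ctss and Tyrobp were lower in old HSCs and Cd14, Maf and Nr1h3 were higher. Of 13 other heme and iron genes tested none was called, and of 7 other complement genes C4b was called higher. Among the monocyte genes Ms4a6c was lower, 1 of 2 tested, and the list summed to 25.0 to 30.9 FPKM in young and 4.65 to 7.96 FPKM in old libraries. Its part in the difference was not tested.

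Across the CD150 fractions of old HSCs the members were at the lower end of what the tables hold. Only Hmox1, Slc40a1 and Spic reached a mean of 1 FPKM in any of the 4 fractions and were tested. None was called, against 0.111% of 11673 genes called higher and 0.0171% called lower in G4 by limma (974 genes had an unadjusted p under 0.05). Hmox1 measured 1.08, 1.42 and 0 FPKM in G1 and 1.18, 2.95 and 4.14 FPKM in G4 (difference 1.05, 95% interval -0.06 to 2.15, adjusted p = 0.617). Spic measured 8.12, 6.29 and 8.21 FPKM in G1 and 2.70, 3.91 and 8.28 in G4 (difference -0.62, interval -1.56 to 0.32, adjusted p = 0.687). Slc40a1 differed by -0.43 (interval -1.25 to 0.39, adjusted p = 0.734). Vcam1, under the filter and not tested, measured 0.127, 0.0812 and 0.0966 FPKM in G1 and 0.534, 0.757 and 0.361 FPKM in G4, without overlap. The share of all genes without overlap in this contrast was not computed, so nothing is read from the separation. C1qb was above 0 in 3 of the 12 libraries, at 0.357 to 0.707 FPKM, and C1qc in 1, at 2.02 FPKM in mouse 3 of G1. In descending order of group means, Spic averaged 8.19 FPKM in day 4 CD150low, 7.54 in G1, 7.31 in young and 6.41 in day 4 CD150high libraries, and these 4 groups overlapped in range.

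Single cells show how such transcripts were distributed. After the filters of the study (at least 800 genes per cell when fresh and 2000 at day 14, and at most 5% mitochondrial UMIs) 1104 young, 2758 old, 2406 day 14 CD150low and 1933 day 14 CD150high cells were kept, with median depths of 14501.5, 13357.5, 19435.5 and 30651.0 unique molecular identifiers (UMIs), the counts of distinct captured molecules. With 1 library per group there is no replicate and no test, and intervals below cover counting error only. The CD150low number is the one the study gives, and the CD150high number is slightly above it. Between 0 and 3 cell barcodes were shared by any 2 libraries among cells kept.

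At day 14 the C1q transcripts were in a minority of cells. C1qa had 182 UMIs in 117 of 2406 CD150low cells (4.86%, exact 95% binomial interval 4.04 to 5.80) and 400 UMIs in 179 of 1933 CD150high cells (9.26%, 8.0 to 10.6). Scaled to 1000000 UMIs of the library (CPM) this was 3.60 (exact Poisson interval 3.09 to 4.16) and 6.24 (5.64 to 6.88). Poisson intervals here and below treat UMIs as independent. The 10 cells with the most C1qa held 30.8% and 26.0% of its UMIs, so these intervals are too narrow. C1qb was in 125 and 181 cells, and C1qc in 76 and 122. Fcna was in 26 and 36 cells, Vcam1 in 68 and 94, and Cd5l in 37 and 53. Slc40a1 was in 71 and 110 cells, Spic in 71 and 108, and Adgre1 in 13 and 16. Hmox1 was in the most cells, 195 (8.10%) and 282 (14.6%), and 1 CD150high cell held 94 of its 584 UMIs. Most cells with a member had 1 UMI of it: 92 of the 117 C1qa cells of the CD150low library, and 101 of the 108 Spic cells of the CD150high library.

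Old fresh HSCs had fewer such cells than young ones. All 10 members together were at 22.9 CPM in young and 22.6 CPM in day 14 CD150low cells. Without Hmox1 and Spic the members were at 13.1 CPM in young and 15.9 CPM in day 14 CD150low cells. Thinned to 5000 UMIs, 8.31% of young, 5.13% of old, 7.55% of day 14 CD150low and 9.93% of day 14 CD150high cells had any member. C1qa was in 28 of 1104 young cells (2.54%, interval 1.69 to 3.64) and in 20 of 2758 old cells (0.725%, 0.443 to 1.12), or 3.38 (2.57 to 4.37) and 0.905 (0.630 to 1.26) CPM. Fcna was at 1.28 (0.804 to 1.94) CPM in young and 0.155 (0.0569 to 0.338) in old cells, and Vcam1 at 1.57 (1.04 to 2.29) and 0.491 (0.296 to 0.767). Spic, at 2.92 (2.16 to 3.84) and 3.08 (2.55 to 3.68), and Slc40a1, at 1.34 (0.850 to 2.01) and 1.45 (1.09 to 1.88), had overlapping intervals. Adgre1 had no UMI in 1104 young cells, whose interval reaches up to 0.334% of cells, and 1 UMI in old cells. The C1q genes and Fcna were thus lower in the old library by this assay as well, with 1 library each.

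The members occurred together in single cells. At least 3 of the 10 had a UMI in 80 of 2406 day 14 CD150low cells (3.33%, interval 2.65 to 4.12) and in 130 of 1933 CD150high cells (6.73%, 5.65 to 7.93). The shallower fresh libraries had 16 of 1104 young cells (1.45%, 0.831 to 2.34) and 12 of 2758 old cells (0.435%, 0.225 to 0.759). In each day 14 library 1 cell had all 10. With every cell thinned to 5000 UMIs, to set depth equal, the shares were 0.626%, 1.14%, 0.457% and 0.146% in the same order. Their intervals at day 14, 0.351 to 1.03 and 0.715 to 1.72, overlapped. They rest on 15 and 22 cells. Over all UMIs, the 10 members together were at 22.6 CPM in CD150low and 34.0 CPM in CD150high cells. By gene, C1qa, C1qb, C1qc, Hmox1 and Slc40a1 were higher in CD150high cells, with CPM intervals that did not overlap. The intervals of Fcna, Vcam1, Cd5l, Spic and Adgre1 overlapped. Fcna was at 0.652 CPM in CD150low and 0.749 in CD150high cells, and Adgre1 at 0.316 and 0.312. Thinning left out 8 CD150low, 9 young and 10 old cells.

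**Figure D4:**
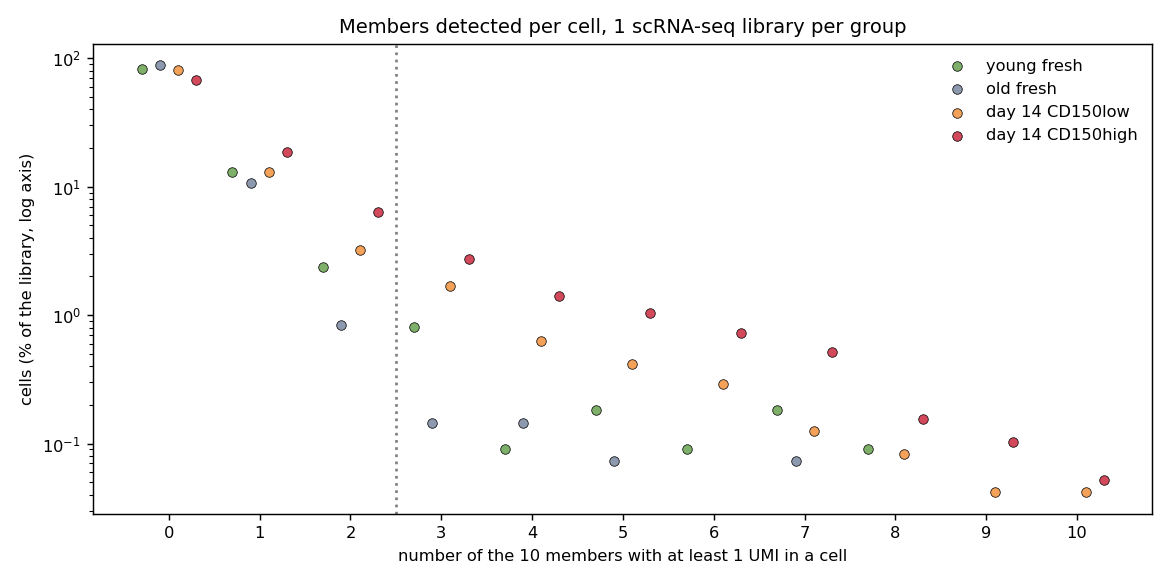
Share of cells (log axis, in % of the cells kept) by how many of the 10 genes had at least 1 UMI, for the 4 scRNA-seq libraries. To the right of the dotted line lie the cells with at least 3, which are 3.33% of the CD150low and 6.73% of the CD150high cells at day 14.

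Each member was read against the other 9. Among 126 day 14 CD150low cells with at least 2 of the other 9 members, C1qa had a UMI in 50 (39.7%, exact interval 31.1 to 48.8), and among 1971 cells with none of the other 9 in 35 (1.78%, 1.24 to 2.46). In CD150high cells the shares were 44.4% of 216 and 3.37% of 1364. For Vcam1 they were 24.5% and 1.27% of CD150high cells, and for Adgre1 5.18% and 0.0758%. Spic had the smallest ratio among CD150low cells, 10.7% against 2.32%, and Hmox1 the smallest among CD150high cells, 41.2% against 9.97%. All 10 members had intervals that did not overlap in both day 14 libraries. Genes outside the 10 were not read by this split, so no background share stands beside that count. The cells with at least 2 others were deeper in both libraries, by medians of 24431.5 against 19145.0 UMIs for C1qa in CD150low and 33120.5 against 29837.0 in CD150high cells.

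**Figure D5:**
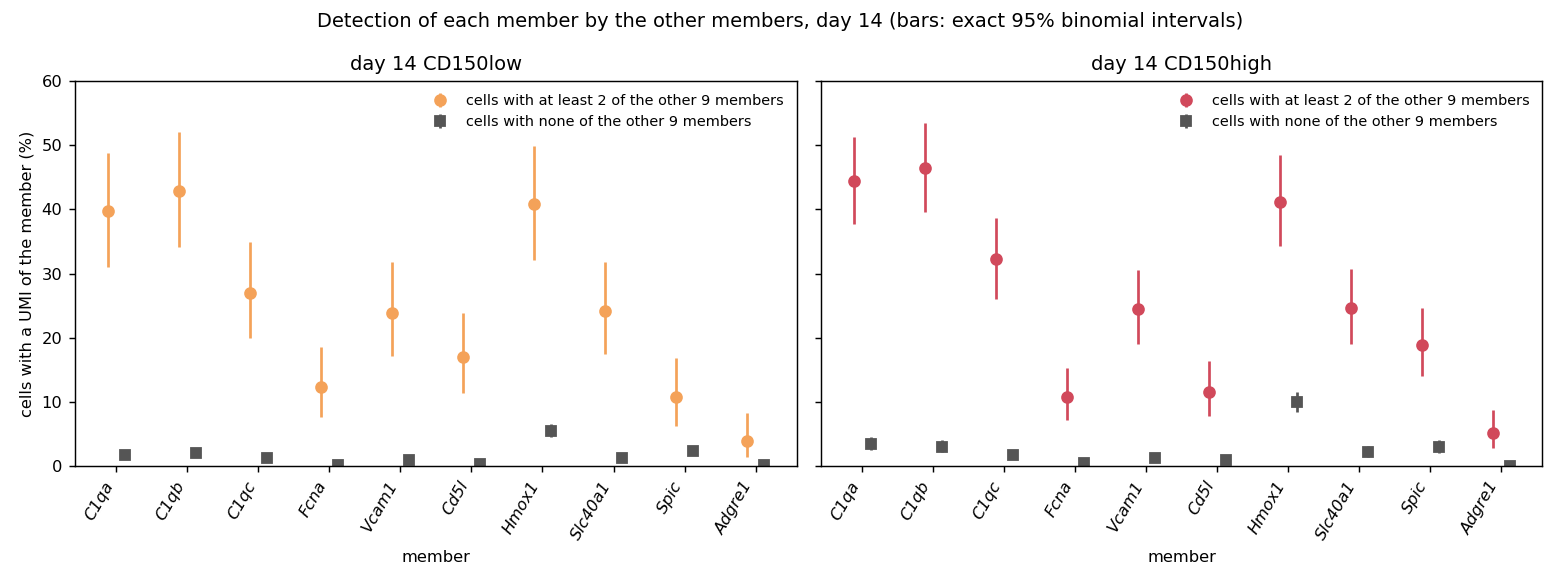
Share of day 14 cells with a UMI of each gene (in %), among cells with at least 2 of the other 9 genes (circles) and among cells with none of them (squares), with exact 95% binomial intervals, CD150low on the left and CD150high on the right. Circles stand above squares for all 10 genes, with the gap of C1qa at 39.7% against 1.78% in CD150low cells.

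The cells with at least 3 members held much of the member UMIs, 592 of 1146 (51.7%) in the CD150low and 1343 of 2181 (61.6%) in the CD150high library. For Fcna it was 78.8% and 81.2%, for C1qa 61.0% and 74.5%, for Hmox1 35.6% and 41.1%, and for Spic 22.1% and 41.9%; the count of members sets part of these shares. Member UMIs were a small part of each such cell, with a median of 0.0225% of its UMIs in CD150low and 0.0192% in CD150high cells and a maximum of 0.211% and 0.294%. The 2 cells with all 10 members show this. The CD150low cell had 14940 UMIs, of which 28 were of members (9 of C1qa, 4 of C1qb, 2 of C1qc), beside no UMI of Kit, 4 of Ly6a and 18 of Ptprc. The CD150high cell had 15420 UMIs with 38 of members, beside 3 of Kit and 11 of Ly6a. In fresh old cells 1 barcode differed, with 30 member UMIs among 1584, or 1.89%, and no UMI of Kit, Ly6a or Ptprc.

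As a group, cells with at least 3 members had Kit and Ly6a transcripts at shares similar to those of cells with no member, while other stem and progenitor transcripts differed. Kit had a UMI in 90.0% of them and in 87.4% of cells with no member in the CD150low library, and in 95.4% and 91.5% in the CD150high library. Ly6a, which encodes Sca-1, had one in 85.0% and 86.0%, and in 81.5% and 86.9%. In the CD150high library Cd34 had one in 62.3% and 71.4%, Slamf1 in 63.1% and 50.2%, and Fgd5 in 20.0% and 12.8%. Flt3 had one there in 11.5% and 20.8%, and Mpo in 13.8% and 24.1%. In the CD150low library Cd34 had one in 85.0% and 88.3%, Slamf1 in 27.5% and 21.6%, Flt3 in 35.0% and 38.1%, and Mpo in 33.8% and 28.2%. The HSC and gate genes together were at 13.3 and 15.0 UMIs per 10000 in CD150low cells with at least 3 and with no member, and at 10.4 and 11.6 in CD150high cells. Their mitochondrial share (medians 3.05% and 3.08%, and 2.82% and 2.88%) was alike, and they had more genes, 5193.0 against 4423.5 and 5804.0 against 5511.5 at the median. Cells with a UMI of Procr and none of Cd48, an HSC-like pattern, had at least 3 members in 5 of 211 CD150low (2.37%, 0.774 to 5.44) and 20 of 301 CD150high cells (6.64%, 4.11 to 10.1). Cells with a UMI of Flt3, a mark of multipotent progenitors, had them in 28 of 878 (3.19%, 2.13 to 4.58) and 15 of 361 (4.16%, 2.34 to 6.76). In neither library did these intervals separate from that of all cells, of which these cells are a part. Depth was unequal, with medians of 11469.0 and 22821.0 UMIs in the Procr cells without Cd48, and 21980.5 and 34561.0 in the Flt3 cells. These shares were not set to equal depth.

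Other macrophage genes were also more frequent in cells with at least 3 members. Of the 27, 16 were over 2-fold higher per 10000 UMIs than in cells with no member in the CD150low and 20 in the CD150high library. Of all genes detected, 6.07% and 6.44% were. Among genes with at least 20 UMIs in these 2 sets of cells, it was 11 of 20 macrophage genes against 2.71% of all genes in the CD150low and 15 of 20 against 2.01% in the CD150high library. The cells with at least 3 members were deeper. Mrc1 had a UMI in 17 of 80 CD150low cells against 16 of 1936, and in 43 of 130 CD150high cells against 22 of 1318. Aif1 had one in 25 of 80 against 50 of 1936, and in 43 of 130 against 35 of 1318. Timd4, a receptor for apoptotic cells, had one in 1 of 80 and 5 of 130 cells and in no cell without members. Abundant genes of the list differed less, as Lyz2 was at 2.51 against 2.08 and 2.52 against 1.95 per 10000. Among all genes with at least 20 UMIs in these cells, Mrc1, Hpgd and Fabp4 were in the top 10 by ratio in both libraries. Fabp4 was in 26 of 80 and 57 of 130 cells with at least 3 members, and in 49 of 1936 and 50 of 1318 with none. Fabp4, Hpgd and Ccr3 were also among the 10 genes most like the members over the bulk libraries, and Ccr3 was in 13 of 80 and 16 of 130 such cells against 4 of 1936 and 7 of 1318. The rest of the CD150low top 10 were Hba-a2, Hbb-bs, Lpl, Plbd1, H2-Eb1, H2-Aa and Cd74, of which Plbd1 came from 1 cell and Cd74 from 10. In the CD150high library they were Sfrp4, C2cd4a, Ccr3, Ms4a7, Ermap, Igf1 and Bcl2a1b, and Sfrp4 was in 3 cells.

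Markers of other cells differed with the members as well. Dendritic cell genes were at 4.87 UMIs per 10000 in CD150low cells with at least 3 members and 1.05 in those with none, and at 0.866 and 0.643 in CD150high cells. Neutrophil genes were at 5.92 and 2.16 in CD150low and at 0.400 and 1.72 in CD150high cells. Erythroid genes were at 13.8 and 7.32 in CD150low and 10.1 and 7.69 in CD150high cells. Megakaryocyte genes were at 6.42 and 3.03 in CD150low and at 6.42 and 6.52 in CD150high cells. As list sums, erythroid and dendritic cell genes were thus higher beside the members in both libraries, and neutrophil and megakaryocyte genes in CD150low cells. Single genes held much of the CD150low differences. Elane was at 3.14 against 0.902, from 6 of 80 cells, and Pf4 at 5.11 against 1.92. Hbb-bs was at 3.52 against 0.128, Cd74 at 2.54 against 0.157 and H2-Ab1 at 1.94 against 0.486. Flt3, of the dendritic cell list, was lower beside the members, at 0.278 against 0.381 in CD150low and 0.0443 against 0.145 in CD150high cells. The part of these lists in the result was not tested. Scrublet called 1 of 80 (1.25%) and 3 of 130 (2.31%) cells with at least 3 members as doublets. Of cells with no member it called 0.413% and 0.379%, and of all cells in these libraries 0.374% and 0.466%. It was given an expected rate of 6%, and the true rate is not known. Doublets may remain uncalled, and none was removed.

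Barcodes that the filters removed carried a higher share of member UMIs than the cells kept. In the day 14 CD150low library it was 159.2 CPM in 1161 barcodes left out and 22.6 in the cells, and in the CD150high library 122.4 in 7698 barcodes and 34.0 in the cells. Of the barcodes left out, 5.68% and 4.66% had any member, with 80.1% of the 372 member UMIs of the CD150low library in 15 barcodes with at least 3 members and 56.9% of 881 in 32 such barcodes of the CD150high library. These had medians of 1928 and 1476 UMIs, of which 0.428% and 0.692% were of members, up to 4.26% and 3.13%. The make-up of the member UMIs was similar in the CD150high library on both sides: C1qa was 18.6% of them in the barcodes left out and 18.3% in the cells, C1qb 16.2% and 16.2%, C1qc 12.6% and 10.1%, Vcam1 10.7% and 7.89%, Hmox1 22.1% and 26.8%, and Spic 3.75% and 5.36%. In the CD150low library the 2 sides differed more, with C1qb at 20.4% of member UMIs in the barcodes left out and 16.1% in the cells, C1qc at 14.5% and 9.86%, Hmox1 at 16.7% and 23.0%, and Spic at 3.23% and 6.72%. All cells here were sorted through an LSK gate, and the identity of single barcodes was not checked. No other sorted cell type was at hand to set the level of free RNA, whose part was not tested. For scale, C1qa had a UMI in 1.78% and 3.37% of cells with none of the other 9 members.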

How the data were processed

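The bulk tables hold FPKM per gene as deposited by the authors, whose notes name Trim Galore, HISAT2 2.0.0 (mm10, unstranded), Cufflinks, SAMtools 1.14, HTSeq 0.12.4 and DESeq2 1.22.2. Which of these wrote the values is not given in the sources used here. Bulk sequencing depth is unknown, summed FPKM was 549860.6 to 723258.7 per library, and the 13 mitochondrial genes are listed at 0 throughout. The scRNA-seq matrices hold UMI counts as deposited by the authors (Cell Ranger 3.0.2, mm10, Seurat 4).

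Rows of 10 repeated symbols were summed. Genes averaging 1 FPKM or more in any group of a fit were tested by limma 3.58.1 (R 4.3.3) on log2(FPKM + 1), with the trend and Benjamini-Hochberg adjustment over all genes, after a test on simulated data. The 3 contrasts were old against young, G4 against G1 and day 4 CD150high against CD150low. For pairing, the deviations of each library from its group means were correlated. In same-numbered young and old libraries these deviations correlated at 0.028 to 0.107. In same-numbered transplanted libraries they correlated at -0.076 to -0.007, so numbers were not used as pairs. G1 to G4 share mice by the labels, yet G1 mouse 3 deviated most like G2 mouse 2 (r = 0.621), not G2 mouse 3 (r = -0.344). UMI shares have exact intervals (scipy 1.17.1), doublets were called with scanpy 1.11.5, and thinning used 5000 UMIs.

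The members and the gene lists were chosen with earlier results of these data known. Named genes are the members, the 10 others most like them over day 4 and over all bulk libraries, list extremes, and the 10 highest single-cell ratios. Methylation and chromatin data were not analysed here.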

Additional observations from a re-analysis of the deposited data

How the results depend on the processing

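Calls in old against young HSCs numbered 4 with all libraries, 0 with no low-value filter, and 1 to 4 when a library was left out; they numbered 3 with a pseudocount of 0.1 (C1qb lost, adjusted p = 0.0691) and 4 with quantile normalisation, no fold threshold or the replicate block. The fits of G4 against G1 and of the transplanted arms called no member under any setting, the replicate block (mouse number for G1 to G4) included, and the block changed no call in old against young HSCs. Day 4 medians over fresh moved to 5.86 (CD150low) and 5.61 (CD150high) with a pseudocount of 0.1. Leaving out a library gave 2.70 to 4.24 and 3.15 to 3.85. The median pair r at day 4, with settings chosen after seeing the data, was 0.88 with a pseudocount of 0.1, 0.87 with quantile normalisation and 0.72 to 0.92 when a library was left out. Shares of cells with at least 3 members moved, when thinned to 5000 UMIs, to 0.457% (young), 0.146% (old), 0.626% (day 14 CD150low) and 1.14% (day 14 CD150high). With at least 2 members they were 3.80%, 1.27%, 6.57% and 13.1%, and over all barcodes the CD150high share was 1.68%. Signs turned with a library left out for Slc40a1 in old against young (-0.47 to 0.19). They also turned in CD150high against CD150low for C1qa (-0.05 to 1.21), C1qb (-0.01 to 1.50), C1qc (-0.10 to 1.36), Vcam1 (-0.77 to 0.87), Cd5l (-0.27 to 1.42), Hmox1 (-0.60 to 0.65, and -0.05 with quantile normalisation), Slc40a1 (-0.54 to 1.09) and Adgre1 (-0.35 to 0.51). The cause was not tested. Single-cell groups have 1 library each, which limits them to counting error.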
